A study of Caenorhabditis elegans with 6 samples.

Results

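The insulin-like peptide genes of *C. elegans* were taken from the gene count table by their symbols, as every row whose symbol starts with *ins-* plus *daf-28*. The rule found 39 genes, 38 *ins-* genes and *daf-28*, among 46739 genes in the table. All 39 are annotated as protein-coding. Insulin-like peptides are small secreted hormones, made in neurons, the intestine and other tissues, that bind the insulin/IGF-1 receptor DAF-2. Agonists of DAF-2 drive a phosphoinositide 3-kinase cascade (AGE-1, PDK-1, AKT-1) that keeps the FOXO transcription factor DAF-16 out of the nucleus, and antagonists oppose it. The family is known for its control of dauer arrest, a resistant larval stage entered under crowding or starvation, and of germline growth, fat storage and adult lifespan.

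RNA-Seq counts were available for 6 libraries of wild-type Bristol N2 worms. Worms were moved as young adults to RNAi bacteria and frozen after 5 days at 20 °C, 3 libraries being labelled Y37A1B.5 RNAi and 3 being L4440 controls, which received the same bacteria with a plasmid lacking an insert. *Y37A1B.5*, named *semo-1* in the annotation, encodes the worm relative of human selenium-binding protein 1, and the comparison asks how its knockdown changes the transcriptome. Replicates are described as independent experiments, and each library was made from the whole bodies of a pool of worms, so fewer cells that express a gene and less RNA per cell cannot be told apart. *Y37A1B.5* itself was counted 4833, 3519 and 4189 times in the libraries labelled Y37A1B.5 RNAi, against 1126, 1295 and 792 times in the L4440 controls (log2 fold change 1.85, adjusted p = 0.000834, edgeR). That difference goes against the label. Reads from the RNAi construct cannot be separated from the worms' own mRNA in these counts, and whether the labels are exchanged was not tested, so every direction given here rests on the labels as deposited. Libraries labelled Y37A1B.5 RNAi held 34403223 to 46733527 counts, and L4440 controls held 34486094 to 36157904. Replicate 3 of the labelled group stood farthest from its fellows.

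All 39 insulin-like peptide genes had at least 1 count in some library, and 35 had a count in each of the 6 libraries. The family was sparsely counted. It received 2849, 3595 and 3958 counts in the libraries labelled Y37A1B.5 RNAi, against 3389, 3637 and 3606 in the L4440 controls. In 5 genes the 6 libraries together gave fewer than 15 counts. The genes are short, with a total exon length of 284 to 955 bp (median 429 bp). A total of 24 genes passed the filter on low counts and were tested, and 15 did not. Among the 24 tested genes the median level was 1.06 CPM (counts scaled to library size with the TMM factors of edgeR), whereas over all 15003 genes tested it was 10.4 CPM. Counting error alone exceeded 10% of the mean count in 18 of the 24.

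A level per kilobase of transcript allows genes to be ranked against each other. By this measure *ins-19* came first over all libraries, followed by *ins-2*, *ins-34*, *ins-7* and *ins-22*. *ins-19* stood at 71.0 ± 13.5 CPM per kb in the labelled group and 44.9 ± 10.2 CPM per kb in the controls (SD, n = 3 each). *ins-2* stood at 30.4 ± 4.66 CPM per kb in the labelled group and 57.4 ± 2.21 CPM per kb in the controls. The order of both genes therefore differed between the groups. Below them, *ins-34* reached 18.7 ± 1.05 CPM per kb in the labelled group, against 27.1 ± 1.36 CPM per kb in the controls. For *ins-7* the levels were 23.1 ± 4.14 CPM per kb in the labelled group and 16.9 ± 1.01 CPM per kb in the controls. *ins-22*, whose tagged form is widely used to mark dense core vesicles, lay at 11.8 ± 1.09 CPM per kb in the labelled group and 12.8 ± 1.58 CPM per kb in the controls. Lower ranks lay close together. *ins-23*, *ins-17* and *ins-3* had control levels of 7.70 ± 1.77, 6.25 ± 0.834 and 5.43 ± 0.335 CPM per kb, and neighbours in that order differed by less than the SD of the higher one.

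**Figure D1:**
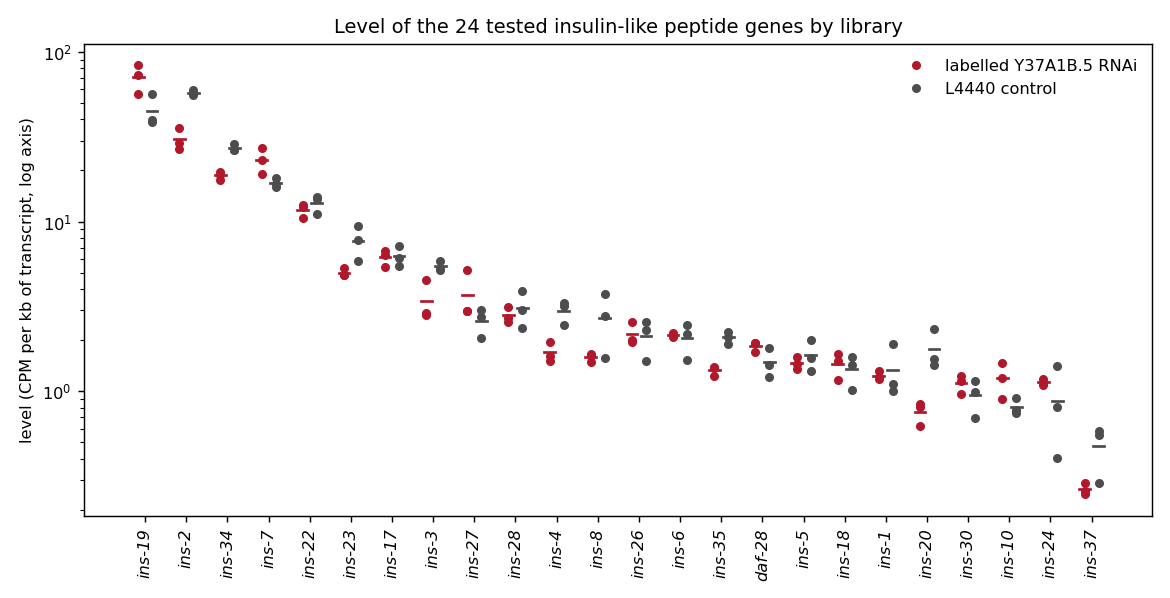
Level of each of the 24 tested genes (CPM per kb of transcript, log axis), with 1 point per library and a bar at the group mean, libraries labelled Y37A1B.5 RNAi in red on the left and L4440 controls in grey on the right of each gene. *ins-2*, *ins-34*, *ins-4* and *ins-20* are among the genes with all red points under the grey ones, and *ins-19* and *ins-2* change places at the top.

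In the family, 8 of the 24 tested genes passed an adjusted p of 0.05 between labelled and control libraries (edgeR quasi-likelihood test, two-sided, Benjamini-Hochberg over all genes tested). That is 33.3% of the 24, where 13.7% of all genes tested passed. *ins-19* and *ins-7* rose, which is 2 of 24 (8.33%), against 4.81% of all genes. *ins-2*, *ins-34*, *ins-4*, *ins-20*, *ins-3* and *ins-23* fell, which is 6 of 24 (25%), against 8.85% of all genes. These counts depended on single libraries. Without control replicates 1, 2 and 3 in turn, 0, 0 and 1 genes of the family were higher and 3, 3 and 5 lower, and 862, 727 and 1754 genes were called in the whole table in place of 2050. Without labelled replicates 1, 2 and 3 in turn, 1 gene of the family was higher each time and 2, 3 and 5 were lower, with 1346, 1390 and 2811 genes called in the whole table. The median absolute log2 fold change was 0.49 in the 24 genes and 0.19 over all genes tested. The 24 genes were also counted less, with the median levels of 1.06 CPM and 10.4 CPM given above, and the part of low counts in that spread was not tested. Its median log2 fold change was -0.11, beside -0.03 over all genes, and the sign of this median rested on a single library, since it was 0.05 without control replicate 1. A positive fold change was found for 10 of the 24 (41.7%) and for 45.9% of all genes. With the trend on transcript length removed, the medians were -0.19 in the family and -0.02 over all genes. Values of the 3 labelled and 3 control libraries did not overlap in 9 of the 24 (37.5%, against 40.5% of all genes). These were *ins-7* on the high side (18.4% of all genes) and 8 genes on the low side (33.3%, against 22.1% of all genes). With 3 libraries against 3, an exact permutation test of a single gene cannot reach a p below 0.1.

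**Figure D2:**
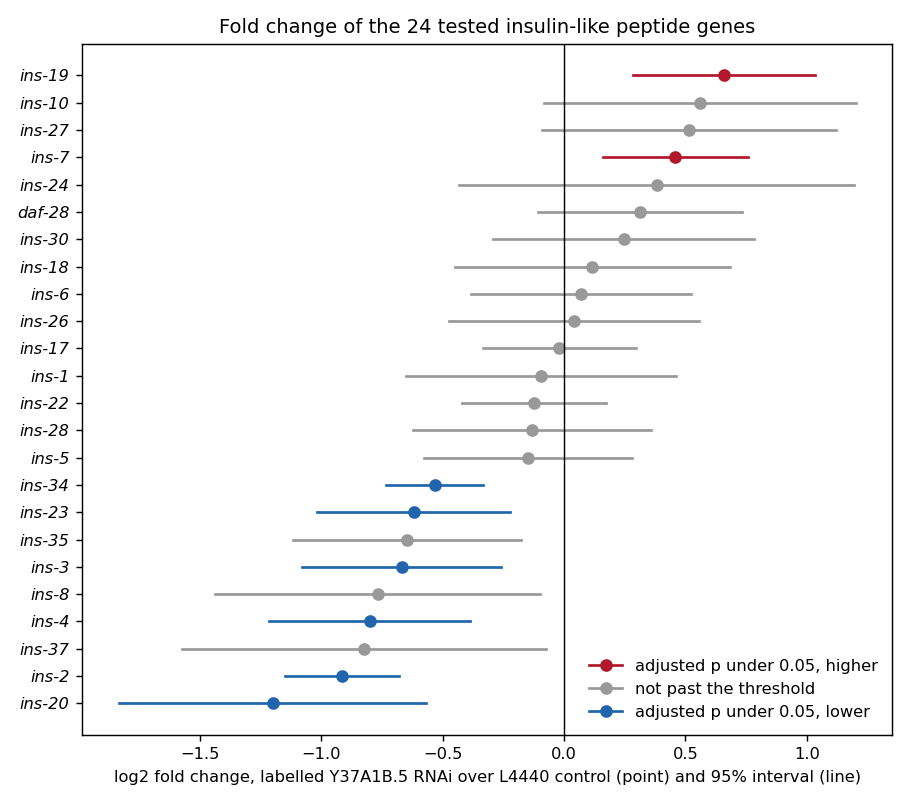
Log2 fold change of the 24 tested genes, libraries labelled Y37A1B.5 RNAi over L4440 control, as the edgeR estimate (point) and its 95% interval (line), ordered from highest to lowest. The 2 genes past the threshold on the high side (red) are *ins-19* and *ins-7*, the 6 on the low side (blue) run from *ins-34* at -0.53 to *ins-20* at -1.20, and 16 genes in grey did not pass.

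*ins-2* and *ins-34* were the most firmly measured of the genes that fell. *ins-2* had 566, 689 and 832 counts in the libraries labelled Y37A1B.5 RNAi, against 1102, 1253 and 1193 counts in the L4440 controls. Each labelled library lay well under each control. Its level was 17.6 ± 2.70 CPM in the labelled group and 33.2 ± 1.28 CPM in the controls, a log2 fold change of -0.91 (95% interval -1.15 to -0.68) with an adjusted p of 0.00072 in edgeR. *ins-34* had 302, 444 and 385 counts in the labelled libraries, against 459, 526 and 483 counts in the controls. The labelled replicate 2, the deepest library, comes near the controls in raw counts, but on the CPM scale the groups stood apart at 8.93, 9.98 and 9.56 CPM in the labelled libraries, against 13.4, 14.5 and 13.3 CPM in the controls. The log2 fold change of *ins-34* was -0.53 (95% interval -0.73 to -0.33, adjusted p = 0.00511, edgeR). Both genes passed in all 14 other fits that were run, the 6 that each left out 1 library included. On chromosome IV, *ins-34* runs from 14106574 to 14107737 on the plus strand (WBcel235), 49856 bp past the end of *Y37A1B.5*. The last 82 bp of its exon sequence run under *nkcc-1* on the other strand, and the counting used strand.

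*ins-2* belongs to a run of 6 insulin-like peptide genes on chromosome II, from 5988524 to 6011321, in the order *ins-2*, *ins-3*, *ins-4*, *ins-5*, *ins-6* and *ins-20*. All 6 were tested and 4 of them fell, where 8.85% of all genes tested did. *ins-3*, which promotes proliferation of the larval germline, had 1.71, 1.66 and 2.66 CPM in the labelled libraries, against 3.06, 3.43 and 3.11 CPM in the controls. Only replicate 3 of the labelled group approached the controls. The log2 fold change was -0.67 ± 0.18 (SE), with an adjusted p of 0.0395 in edgeR. *ins-4*, an agonist of DAF-2 that acts with *daf-28* and *ins-6*, had 30, 42 and 46 counts in the labelled libraries, against 66, 52 and 67 in the controls. In CPM the highest labelled library (1.14) lay below the lowest control (1.44). Its log2 fold change was -0.80 ± 0.19 (SE, adjusted p = 0.0218, edgeR). *ins-20*, the last gene of the run, had only 9, 16 and 14 counts in the labelled libraries, against 21, 36 and 24 in the controls. It had the largest fitted decrease of the family, -1.20 on the log2 scale, and also a wide interval of -1.83 to -0.57 (adjusted p = 0.0234, edgeR).

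The members in the middle of the run gave no call. *ins-5* was measured at 1.15, 1.37 and 1.24 CPM in the labelled libraries, against 1.72, 1.35 and 1.13 CPM in the controls, with an interval of the log2 fold change of -0.58 to 0.28. *ins-6*, an agonist that promotes exit from dauer, was measured at 1.12, 1.15 and 1.09 CPM in the labelled libraries, against 1.28, 1.13 and 0.799 CPM in the controls. Its interval ran from -0.39 to 0.52. The groups overlapped for both genes. *ins-4* and *ins-5* are separated by 548 bp and *ins-5* and *ins-6* by 1412 bp, and *ZK84.4* lies between *ins-6* and *ins-20*. Whether the fold changes of neighbouring genes differ from each other was not tested.

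**Figure D3:**
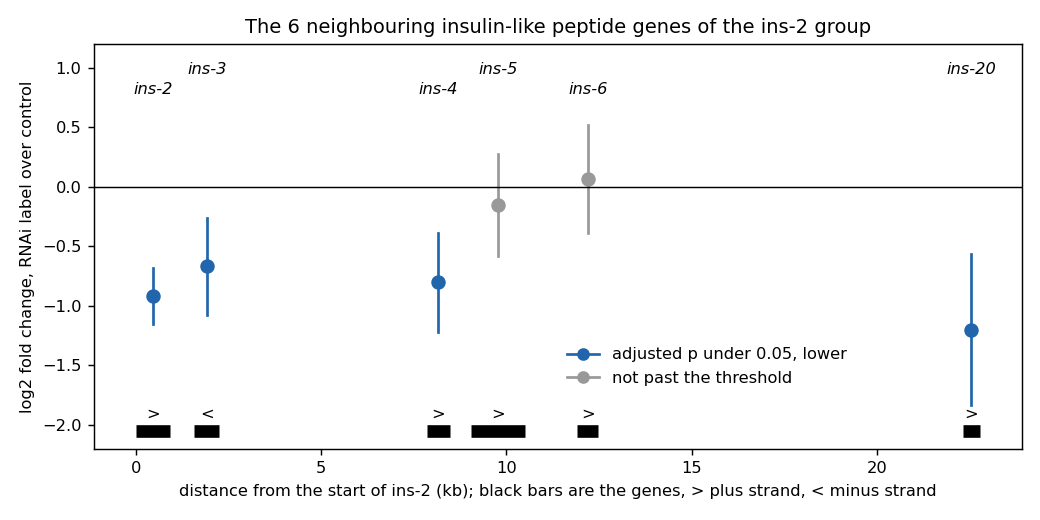
Log2 fold change (edgeR estimate and 95% interval) of the 6 insulin-like peptide genes of the run on chromosome II against the distance of each gene's midpoint from the start of *ins-2* in kb, with black bars for the genes. *ins-2*, *ins-3*, *ins-4* and *ins-20* (blue) fell, and the intervals of *ins-5* and *ins-6* (grey) include 0.

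*ins-23* was the remaining gene that fell. It had 1.89, 2.09 and 1.91 CPM in the labelled libraries, against 3.06, 3.70 and 2.31 CPM in the controls. The labelled libraries were tightly grouped, and control replicate 3 was the closest to them. The log2 fold change was -0.62 (95% interval -1.02 to -0.22, adjusted p = 0.0461, edgeR). *ins-23* sits on chromosome III beside *ins-21* and *ins-22* in a stretch of 4946 bp. *ins-22* is 1560 bp away and was better counted, with 4.14, 4.23 and 3.55 CPM in the labelled libraries, against 4.58, 4.70 and 3.72 CPM in the controls. It did not pass (log2 fold change -0.12, interval -0.42 to 0.17). *ins-21* was too low to test, at 1 to 3 counts in every library.

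*ins-19* had the largest fitted increase, on the log2 scale, among the 24 genes. It had 26.6, 20.4 and 30.1 CPM in the libraries labelled Y37A1B.5 RNAi, against 14.3, 13.9 and 20.5 CPM in the L4440 controls. The lowest labelled library was level with control replicate 3, so the groups overlapped. Only 9 of the 2050 genes called in the whole table overlap in this way. The log2 fold change was 0.66 (95% interval 0.28 to 1.03, adjusted p = 0.0309, edgeR). *ins-19* lies on the minus strand of chromosome II from 3126037 to 3126441, and its neighbour *ins-31*, 599 bp away, had 0 counts in the 3 labelled libraries and 1, 1 and 0 in the controls.

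*ins-7*, an agonist made in the intestine and in neurons whose gene is repressed by DAF-16, had 253, 407 and 433 counts in the labelled libraries, against 243, 228 and 239 in the controls. Labelled replicate 1 lay just above the controls at 7.48 CPM, where control replicate 1 had 7.09 CPM, and replicates 2 and 3 reached 9.15 and 10.7 CPM. The log2 fold change was 0.46 (95% interval 0.16 to 0.76) and the adjusted p was 0.0482 in edgeR, the closest to the threshold of the 8. *ins-8* lies 1069 bp from *ins-7* on chromosome IV on the same strand. It had 20, 27 and 22 counts in the labelled libraries, against 35, 50 and 21 in the controls, and did not pass (log2 fold change -0.77, adjusted p = 0.109, edgeR). *ins-35*, an intestinal peptide that acts with *ins-7*, was measured at 0.532, 0.472 and 0.521 CPM in the labelled libraries, against 0.729, 0.857 and 0.799 CPM in the controls. Its groups did not overlap, and its log2 fold change of -0.65 had an adjusted p of 0.0659 in edgeR. *ins-37* also had groups that did not overlap, with 0.236 to 0.273 CPM in the labelled libraries and 0.276 to 0.553 CPM in the controls, and an adjusted p of 0.121 in edgeR. In *ins-37*, 171 bp of exon are shared with *F08G2.9* on the same strand, and reads over both genes were not counted.

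Summed over the 39 genes, the level was 84.2, 80.8 and 98.3 CPM in the labelled libraries, against 98.9, 101 and 99.4 CPM in the controls. These sums did not overlap, but labelled replicate 3 lay within 1 CPM of control replicate 1. Without the TMM factors the sums were 82.8, 76.9 and 105 CPM in the labelled libraries, against 98.3, 101 and 99.8 CPM in the controls, so that they overlapped and labelled replicate 3 was the highest of the 6. *ins-2* supplied 19.9%, 19.2% and 21% of the family's CPM in the labelled libraries, against 32.5%, 34.5% and 33.1% in the controls. *ins-19* supplied 31.6%, 25.2% and 30.6% in the labelled libraries, against 14.5%, 13.9% and 20.6% in the controls. The ranges of both shares stood apart. *ins-34* gave 9.73% to 12.4% in the labelled libraries and 13.4% to 14.5% in the controls. *ins-7* gave 8.88% to 11.3% in the labelled libraries and 6.27% to 7.17% in the controls. The other 35 genes together overlapped, with 27.7% to 31.9% in the labelled libraries and 26.3% to 32.3% in the controls. Set against each other per kb, a pairing chosen after the values were seen, *ins-2* was 0.393, 0.475 and 0.430 times *ins-19* in the labelled libraries, against 1.41, 1.55 and 1.00 times in the controls.

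**Figure D4:**
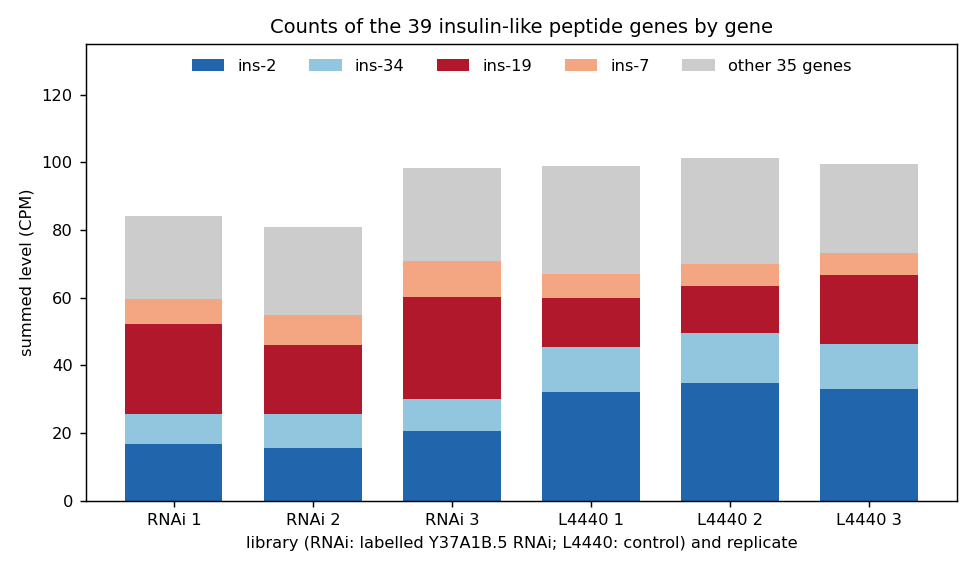
Summed level of the 39 insulin-like peptide genes in each library (CPM, axis from 0), with the 3 libraries labelled Y37A1B.5 RNAi on the left and the 3 L4440 controls on the right, divided into *ins-2*, *ins-34*, *ins-19*, *ins-7* and the other 35 genes. The *ins-19* part is larger than the *ins-2* part in every labelled library, and the *ins-2* part is the larger in every control.

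*daf-28*, *ins-1*, *ins-18* and *ins-17* gave no call. *daf-28*, an agonist that favours reproductive growth over dauer arrest, had 49, 57 and 58 counts in the labelled libraries, against 37, 49 and 33 in the controls. On the CPM scale its groups overlapped, at 1.28 to 1.45 CPM in the labelled libraries and 0.909 to 1.35 CPM in the controls, and the interval of its log2 fold change was -0.11 to 0.73. The antagonist *ins-1* was measured at 0.943 to 1.06 CPM in the labelled libraries and 0.801 to 1.52 CPM in the controls (interval -0.65 to 0.46). *ins-18*, also an antagonist, was measured at 0.503 to 0.720 CPM in the labelled libraries and 0.442 to 0.689 CPM in the controls (interval -0.45 to 0.68). *ins-17*, which favours dauer arrest, was better counted and had the fold change nearest to 0 of the 24 genes. It had 3.02, 3.73 and 3.53 CPM in the labelled libraries, against 3.41, 3.98 and 3.06 CPM in the controls, with an interval of -0.33 to 0.29.

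A further run of 7 genes on chromosome I, from 14012369 to 14037777, holds *ins-28*, *ins-29*, *ins-25*, *ins-27*, *ins-24*, *ins-30* and *ins-26*. The 5 that were tested gave no call. *ins-27* had 0.916, 0.922 and 1.61 CPM in the labelled libraries, against 0.933, 0.636 and 0.854 CPM in the controls, and its log2 fold change of 0.52 came with an adjusted p of 0.211 in edgeR. Labelled replicate 3 alone stood above the controls there. *ins-24* (0.38), *ins-30* (0.25), *ins-26* (0.04) and *ins-28* (-0.13) had log2 fold changes whose 95% intervals include 0. *ins-10*, on chromosome V, had 12, 21 and 23 counts in the labelled libraries, against 10, 13 and 11 in the controls (log2 fold change 0.56, adjusted p = 0.202, edgeR). In all, 7 runs of neighbouring insulin-like peptide genes, with gaps of at most 12000 bp, held 25 of the 39 genes.

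The 15 genes under the filter had at most 16 counts in any library. Without the filter none of the 15 passed the edgeR test, and 0 had an unadjusted p under 0.05. DESeq2 gave none of them an adjusted p. *ins-33*, which like *ins-3* promotes proliferation of the larval germline, was the most counted of the 15. It had 12, 10 and 16 counts in the labelled libraries, against 4, 7 and 8 in the controls, and was the only one of the 15 whose groups did not overlap (unadjusted p = 0.0529 without the filter, edgeR). Of all genes tested, 40.5% had groups that did not overlap, 18.4% on the high side. *ins-29* had 9, 6 and 13 counts in the labelled libraries, against 7, 7 and 5 in the controls. *ins-14* had 10, 3 and 8 counts in the labelled libraries, against 6, 1 and 3 in the controls. *ins-11*, an intestinal peptide induced by pathogens through HLH-30, had 3, 5 and 3 counts in the labelled libraries, against 7, 1 and 5 in the controls. *ins-13*, *ins-15* and *ins-31* never exceeded 3 counts in a library, so no fold is given. *ins-15* had 0 counts in the 3 labelled libraries, which allows a level of up to 0.0887 CPM in the shallowest of them.

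Genes that act on the peptides or answer to them were read from lists chosen for their roles. None of the 12 genes tested of the insulin receptor pathway passed the threshold in edgeR or in DESeq2, while 3 of them had an unadjusted p under 0.05 on the low side and 0 on the high side, and leaving out labelled replicate 3 brought 1 of the 12 past the threshold on the low side. *daf-2*, the receptor, had 182, 182 and 132 CPM in the labelled libraries, against 201, 206 and 205 CPM in the controls. Labelled replicate 3 was the lowest of the 6. The adjusted p of *daf-2* was 0.0977 in edgeR, with a log2 fold change of -0.30. *daf-16* had 199, 180 and 155 CPM in the labelled libraries, against 201, 198 and 194 CPM in the controls (adjusted p = 0.283, edgeR).

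In a list of 15 genes for the processing of propeptides and the making and release of dense core vesicles, which carry such hormones, 5 of the 15 fell (8.85% of all genes tested did) and 0 rose, with a median log2 fold change of -0.28, beside -0.03 over all genes. *hid-1*, needed for the sorting of cargo into dense core vesicles, had 36.1, 37.6 and 30.5 CPM in the labelled libraries, against 51.0, 53.1 and 51.3 CPM in the controls (adjusted p = 0.0025, edgeR). *ida-1*, a receptor-type phosphatase-like protein of the vesicle membrane, had 20.4, 19.8 and 15.6 CPM in the labelled libraries, against 27.5, 27.4 and 25.9 CPM in the controls (adjusted p = 0.00962, edgeR). In both genes the groups were well apart, and both calls held without any single library. The call of *kpc-1*, a proprotein convertase, and those of *unc-31*, which primes dense core vesicles for release, and *cccp-1*, a further dense core vesicle factor, were less firm. Their log2 fold changes were -0.44, -0.46 and -0.47, and the list had 2 genes lower without control replicate 1, control replicate 2 or labelled replicate 2, and 3 without control replicate 3 or labelled replicate 1. It had 3 when the trend on transcript length was removed.

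Of 9 targets of DAF-16 tested, 2 rose (4.81% of all genes tested did) and 0 fell. *lys-7*, a lysozyme, had 2136, 2109 and 2075 CPM in the labelled libraries, against 1685, 1480 and 1509 CPM in the controls (adjusted p = 0.0136, edgeR). *dod-3* had 6.30, 7.42 and 7.03 CPM in the labelled libraries, against 4.73, 2.60 and 3.14 CPM in the controls (adjusted p = 0.00879, edgeR). Both stood above every control. *lys-7* did not pass without control replicate 2 or control replicate 3. *sod-3*, the manganese superoxide dismutase often read as a report of DAF-16 activity, had a log2 fold change of -0.01 (95% interval -0.42 to 0.40). It was sparsely counted, at 1.34 ± 0.238 CPM in the labelled group and 1.36 ± 0.139 CPM in the controls. Among 12 regulators upstream of peptide genes, *hlh-30*, the TFEB transcription factor, was the only 1 to fall (8.85% of all genes tested fell), with a log2 fold change of -0.35 (adjusted p = 0.0202, edgeR), and the other 11 did not pass. Its call was lost without control replicate 1, control replicate 2 or labelled replicate 1.

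Markers of the tissues that make these peptides and of other cells were read beside them, and of all genes tested 8.85% fell and 4.81% rose. The summed level of 12 neuronal markers was 293.9 to 321.3 CPM in the labelled libraries and 322.7 to 346.5 CPM in the controls, with 2 of 12 lower (*unc-31* and *ida-1*, which also stand in the vesicle list) and no marker at 0. The sums of these 12 were thus lower in the labelled libraries. Most of that gap lay in markers that also stand in the vesicle list, namely *unc-31*, *ida-1*, *egl-3* (log2 fold change -0.28) and *egl-21* (-0.24). *egl-3* had a mean of 36.4 CPM in the labelled group and 44.1 CPM in the controls, and *egl-21* had 28.6 and 33.8 CPM. *ida-1* had 15.6 to 20.4 CPM in the labelled libraries and 25.9 to 27.5 CPM in the controls. The lower sums therefore largely repeat the result of the vesicle list. Whether neuronal RNA had a part in the fall of the 6 peptide genes was not tested. Markers outside that list ran from -0.23 (*sng-1*) to 0.025 (*snb-1*), and none of them passed. *snb-1*, the most counted of the 12, had 161, 169 and 163 CPM in the labelled libraries, against 166, 162 and 156 CPM in the controls. Among 9 intestine markers 1 rose (*pho-1*, an acid phosphatase), and the sums overlapped at 875.2 to 1261 CPM in the labelled libraries and 850.8 to 1230 CPM in the controls. Of 6 hypodermis markers 1 rose (*col-19*, an adult cuticle collagen) and 0 fell, while 2 had an unadjusted p under 0.05 on the low side, and the median log2 fold change of the 6 was -0.33, with sums of 141.6 to 182.9 CPM in the labelled libraries and 173.4 to 185.9 CPM in the controls. Embryo markers, 9 tested of 10, had 2 higher (*pal-1* and *nos-2*). Sums over all 10 overlapped, at 3119 to 4113 CPM in the labelled libraries and 3443 to 3880 CPM in the controls. Most of these sums came from *cbd-1* (mean 2083 CPM labelled, 2095 CPM control) and *mex-5* (950 CPM labelled, 895 CPM control). None of 4 sperm markers tested, of 7 listed, passed in edgeR or DESeq2, with 0 at an unadjusted p under 0.05. Sums over all 7 were 1.14 to 2.79 CPM in the labelled libraries and 0.992 to 2.34 CPM in the controls. With 1 library left out, 0 to 4 intestine, 0 to 1 hypodermis and 0 to 3 embryo markers were higher. The counts of 4 intestine and 3 embryo markers came without labelled replicate 3, and that of 0 hypodermis markers without labelled replicate 2. Without labelled replicate 3, 1 hypodermis marker was lower.

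The calls differed in how firmly they held when single libraries were left out. *ins-2* and *ins-34* passed in all 6 such fits. *ins-20* passed in 4, not without control replicate 2 or labelled replicate 1, and *ins-19* in 3, not without control replicate 1, control replicate 2 or labelled replicate 1. DESeq2 gave *ins-20* no adjusted p, and with 9 counts in labelled replicate 1 it was not tested under the filter of 10 counts in every library. *ins-4* passed in 2, without control replicate 2 and without labelled replicate 3. *ins-3*, *ins-23* and *ins-7* passed in 1 each, *ins-3* without labelled replicate 3, *ins-23* without control replicate 3 and *ins-7* without labelled replicate 1. None of the 8 changed direction in any of these fits or in the other fits run, and the adjusted p of edgeR for these 6 less firm genes reached 0.0864 to 0.177 at its highest. With the trend on transcript length removed, *ins-7* had an adjusted p of 0.0626 and *ins-35* one of 0.0394, which then passed.

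**Figure D5:**
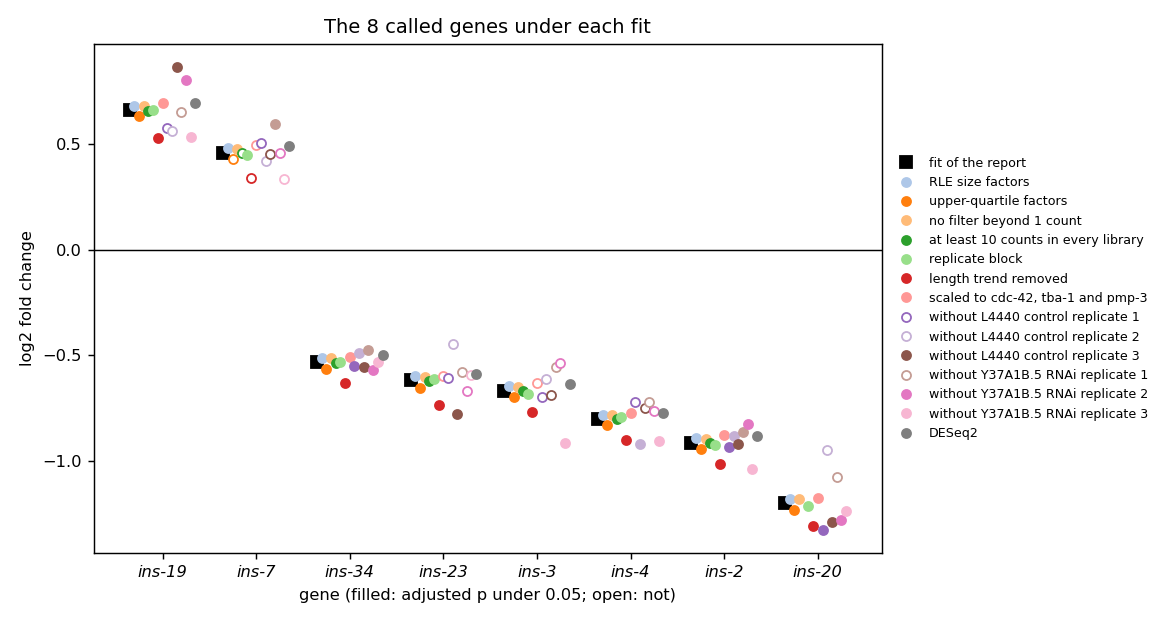
Log2 fold change, labelled Y37A1B.5 RNAi over L4440 control, of the 8 called genes in the fit of the report (black square) and in each other fit (circles, filled where the adjusted p was under 0.05, open where it was not). Every point lies on the same side of 0 as its square, *ins-2* and *ins-34* have filled circles throughout, and *ins-7* has 9 open circles.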

How the data were processed

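RNA-Seq was analyzed for 6 whole-worm libraries, grouped and numbered by their labels. Raw counts for each gene were deposited, with no normalization. As the methods of the study state, the authors trimmed and filtered reads for quality, mapped them to WBcel235 with TopHat2 2.1.0 under the Ensembl release 90 annotation, and counted with featureCounts 1.5.0 those reads that matched a single gene on its strand. Reads of near-identical genes are therefore lost. All columns were used. Symbols, positions and lengths came from the Ensembl release 115 annotation of the same build. Sequences of the peptides were not used here.

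Tests used edgeR 4.0.16 under R 4.3.3 (TMM factors, filterByExpr with minimum count 10 and minimum total 15, quasi-likelihood test, Benjamini-Hochberg at 0.05), after the code was tested on simulated data. SEs were derived from the F statistic and intervals cover 95%. CPM were calculated on the TMM scale, with means ± SD of 3 libraries, and per kb of the longest transcript. A library at 0 allows up to 3 counts, which covers counting error only. Every tested gene of the family is named, with, of the 15 others, those with a listed role and the 3 most counted. Of the other lists, genes past the threshold, *daf-2* and *daf-16* are named. *sod-3*, *egl-3*, *egl-21*, *sng-1*, *snb-1*, *cbd-1* and *mex-5* were added after their values were seen, as were *ins-13*, *ins-15*, *ins-21* and *ins-31*. The family, the lists and the tests were chosen with earlier results of these data known. Symbols *opt-2* and *bus-8* of the marker lists found no gene. Alternatives were RLE and upper-quartile factors, DESeq2 1.42.0, 2 other filters, a replicate block, removal of the trend on transcript length, scaling to 3 reference genes (*pmp-3*, *cdc-42* and *tba-1*), and leaving out each library.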

Additional observations from a re-analysis of the deposited data

How the results depend on the processing

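Over all genes tested, 2050 were called, 3298 with no filter beyond 1 count, 1349 when scaled to the reference genes *pmp-3*, *cdc-42* and *tba-1*, and 727 to 2811 with 1 library left out. Genes of the family called higher numbered 2, and 1 with upper-quartile factors, with at least 10 counts in every library, with the length trend removed or with scaling to the reference genes, *ins-7* being the one lost each time. With 1 library left out, 0 to 1 were higher and 2 to 5 were lower, where 6 were lower with all libraries. Fewer libraries enter those fits. The median log2 fold change of the tested genes ran from -0.22 without control replicate 3 to 0.046 without control replicate 1. All 39 genes are tested without the filter, so 0 stay under it, while DESeq2 leaves 25 without an adjusted p (2 higher and 5 lower among the other 14). DESeq2 called 2507 genes over the whole table. The 14 are the most counted of the family, so their share cannot be set beside that of the 24 genes tested in edgeR. Of the values of single tested genes under the alternatives, 290 kept their side of the threshold, 30 were no longer past it and 3 newly passed it, and no called gene reversed. Besides *ins-7*, *ins-3* and *ins-23* were no longer past the threshold when scaled to the reference genes, and *ins-8* passed without the filter (adjusted p = 0.0327, edgeR) and without control replicate 3 (adjusted p = 0.0277).

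With the replicate number as a block, 2917 genes of the whole table were called, and 2 genes of the family were higher and 6 lower. Deviations of same-numbered libraries from their group means correlated by 0.135, 0.0626 and 0.121 across genes, and those of other pairs by -0.146 to 0.0357. Each library correlated best with its own number, a hint from the data only, and genes are not independent replicates. The labels do not say that the numbers pair the samples, and the fit of the report used the group only. Depth limits the 15 untested genes most, at 16 counts or fewer per library.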
